A study of Mus musculus with 4 samples.

Results

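Transcripts of 7 carriers that bring amino acids into activated T cells were followed here in tumour-infiltrating CD8 T cells of mice with hepatocellular carcinoma. The 7 genes, Slc7a5, Slc3a2, Slc1a5, Slc38a1, Slc38a2, Slc7a1 and Slc7a6, were taken by name and make up 7 of the 14934 genes in the deposited table. All 7 were in it. The study compared wild-type CD8 T cells that carried JAML, the junctional adhesion molecule-like protein, at the surface with those that did not, both sorted by flow cytometry. Each group had 2 libraries, marked (A) and (B) after the replicate letter. The JAML-negative libraries have CON in their titles, and the names of both groups are those of the sample descriptions. The labels name no strain, age, tumour model or treatment, and leave unsaid whether A and B came from separate animals. The p-values set a group difference against the spread of libraries within groups, estimated in part across genes, and that spread may be technical.

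A T cell that divides needs more amino acids than it can make, and it takes them up through exchangers and sodium-coupled carriers. LAT1, the light chain encoded by Slc7a5, is bound to the heavy chain CD98 encoded by Slc3a2 and exchanges glutamine inside the cell for leucine and other large neutral amino acids outside it. The product of Slc7a6, y+LAT2, uses the same heavy chain. ASCT2 (Slc1a5) exchanges small neutral amino acids including glutamine, SNAT1 (Slc38a1) and SNAT2 (Slc38a2) carry glutamine and alanine inwards with sodium, and CAT1 (Slc7a1) carries arginine and lysine. In T cells the expression of several of these carriers is known to follow antigen receptor stimulation and the transcription factor Myc, and leucine uptake through LAT1 feeds the kinase complex mTORC1.

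Libraries held 27530187 to 30569728 counts, and values are given as CPM (counts per 1000000 counts) after scaling with TMM factors for each library, or as mean ± SD of the 2 libraries of a group. JAML-positive replicate A stood apart, with 12.5% of its counts in 82 ribosomal protein genes against 7.71% to 8.62% in the others, and 0.0703% in the nuclear RNA Malat1 against 0.12% to 0.146%. Transcripts of the sort marker Jaml were higher in both JAML-positive libraries but did not pass the test. Jaml lay at 131 (A) and 117 (B) CPM in cells without JAML and 138 (A) and 147 (B) CPM in cells with JAML (log2 fold change 0.20, edgeR adjusted p = 0.881). Cd8a and Cd3e, which mark CD8 T cells, were at 1024 to 1113 CPM and 378 to 443 CPM over the 4 libraries. Summed markers of CD8 T cells (6 of 7 listed genes in the table) came to 3289 to 3402 CPM in JAML-negative and 3307 to 3828 CPM in JAML-positive libraries. Summed markers of several other cell types were higher in JAML-positive libraries. Those of dendritic cells and MHC class II (8 of 9 tested genes higher) summed to 195.8 to 236 against 307 to 497 CPM, and those of plasmacytoid dendritic cells (6 of 6) to 64.2 to 68.7 against 175 to 196 CPM. Monocyte, macrophage and Kupffer cell markers (8 of 10) summed to 80.5 to 84.1 against 164 to 216 CPM. Most of that rise lay in Mpeg1 alone, at 7.50 (A) and 13.9 (B) against 119 (A) and 89.6 (B) CPM. Adgre1 and Lyz2 of that list were lower in JAML-positive cells. B and plasma cell markers (4 of 4 tested) summed to 10.5 to 18.1 against 84.9 to 126 CPM. Of their defining markers, Ly6d and Mzb1 had no counts in JAML-negative libraries and Pax5 none in JAML-positive ones. Markers of dividing cells (6 of 6 higher) summed to 1550 to 1612 against 2103 to 2436 CPM. CD4 and regulatory T cell markers (4 of 5) summed to 485 to 548 against 632 to 723 CPM, and 0 genes of any marker list passed the test. Markers of hepatocytes and tumour epithelium summed to 32.5 to 65.9 against 33.5 to 43.2 CPM, those of natural killer cells overlapped between the groups, and those of endothelial and stellate cells summed to 144 to 149 against 123 to 139.6 CPM. Whether any of these moved the transporter values was not tested, and in sorted bulk cells a change in the share of a cell type cannot be told apart from a change of RNA per cell.

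All 7 transporters passed the filter on low counts and were detected in every library, from 1107 counts (Slc7a6) to 25832 counts (Slc38a2). None passed the test between the groups: edgeR's quasi-likelihood test called 0 of 7, beside 0.0% of the 11563 genes tested. At an unadjusted p under 0.05, 2 of 7 had lower values in JAML-positive cells (Slc38a2 and Slc3a2), beside 3.34% of all genes, and 0 had higher values, beside 4.32% (7.65% in either direction). DESeq2 called 0 of 7, beside 7.65% of all genes. In CPM both libraries of one group lay above both of the other for 4 of 7, with Slc7a5 and Slc38a1 higher and Slc3a2 and Slc38a2 lower in JAML-positive cells, beside 38.5% of all genes. Values were higher for 3 and lower for 4 transporters, with a median log2 fold change of -0.06 against 0.01 over all genes tested.

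**Figure D1:**
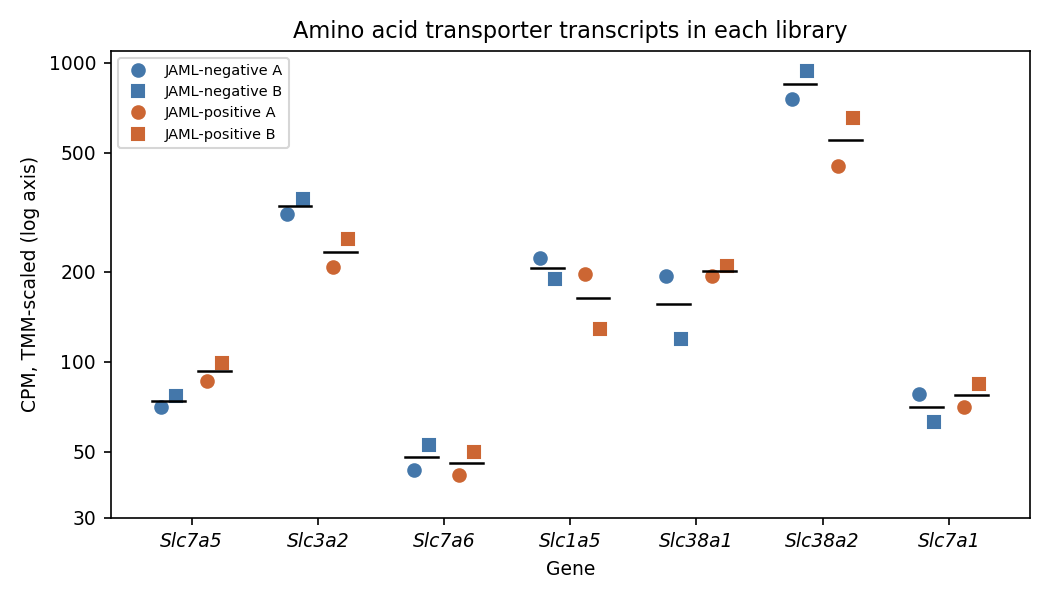
CPM on the TMM scale (vertical, log axis) of the 7 transporters in each of the 4 libraries. Points are libraries (circles replicate A, squares replicate B, blue JAML-negative, orange JAML-positive) and bars are group means of 2 libraries. Slc3a2 and Slc38a2 lie lower in both JAML-positive libraries, Slc7a5 lies higher in both, and the groups of Slc1a5, Slc7a1 and Slc7a6 overlap.

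Levels of different genes were compared per length, as CPM per kilobase of the longest coding transcript. SNAT2 transcripts were the most abundant at a mean of 150.2 CPM per kilobase over the 4 libraries (96.7 to 201), followed by the CD98 heavy chain at 100.1 (73.7 to 124) and ASCT2 at 66.7 (46.4 to 80.6). SNAT1 at 24.6 (16.4 to 28.8) and LAT1 at 23.6 (20.1 to 28.1) overlapped, and y+LAT2 at 12.5 (11.2 to 14.03) and CAT1 at 10.3 (8.74 to 11.7) were lowest and also overlapped in range. The ranges of SNAT2 and the heavy chain overlapped between libraries, and so did those of the heavy chain and ASCT2, although the first of each pair was the higher in 4 of 4 libraries. The steps from ASCT2 to SNAT1 and from LAT1 to y+LAT2 were the ones without overlap. With the mean length of the annotated coding transcripts, some of which are short, Slc3a2 led at 270.2 CPM per kilobase and Slc7a5 was last at 23.6. Slc1a5 and Slc38a1 were the 2 genes that held their place in both orders.

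The LAT1 light chain had somewhat more transcripts in JAML-positive cells. Slc7a5 (Entrez 20539, chromosome 8, 121881146 to 121907686, GRCm38, minus strand) lay at 70.6 (A) and 76.5 (B) CPM in cells without JAML and 86.4 (A) and 99.0 (B) CPM in cells with JAML. Both JAML-positive libraries were above both JAML-negative ones, with means of 92.7 ± 8.89 and 73.5 ± 4.15 CPM (SD, n = 2). The difference did not pass the test (log2 fold change 0.34, SE 0.32, edgeR adjusted p = 0.815). The 95% interval of the difference ran from 0.783-fold to 2.04-fold.

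The heavy chain had lower values in JAML-positive cells. Slc3a2 (Entrez 17254, chromosome 19, 8706882 to 8723369, minus strand) lay at 312 (A) and 349.8 (B) CPM in cells without JAML and 207 (A) and 258 (B) CPM in cells with JAML. The groups did not overlap (331 ± 27.0 against 233 ± 35.8 CPM), and the lowest value was that of JAML-positive replicate A. The log2 fold change was -0.50 (SE 0.23, unadjusted p = 0.046, edgeR adjusted p = 0.609), with a 95% interval of 0.501-fold to 0.993-fold. It was -0.35 without JAML-positive replicate A, the library with the high ribosomal share, where Slc3a2 still lay lower.

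Within each library the count of the light chain was therefore set against that of the heavy chain, a ratio that does not depend on how libraries are scaled. Slc7a5 over Slc3a2 was 0.227 (A) and 0.219 (B) in cells without JAML and 0.417 (A) and 0.384 (B) in cells with JAML. The ratio was 1.80-fold higher in JAML-positive cells (log2 difference 0.85), with an SD of the log2 ratio of 0.04 and 0.08 within the groups. With any 1 library left out the log2 difference was 0.79 to 0.91. Groups of 2 libraries allow an exact two-sided permutation p no smaller than 0.333, so the difference was not tested further. Among all other tested genes, 44.2% had a ratio to Slc3a2 that was higher in both JAML-positive libraries, and in 33.5% it was higher by as much as that of Slc7a5 or more, so the size of this shift was common among genes.

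**Figure D2:**
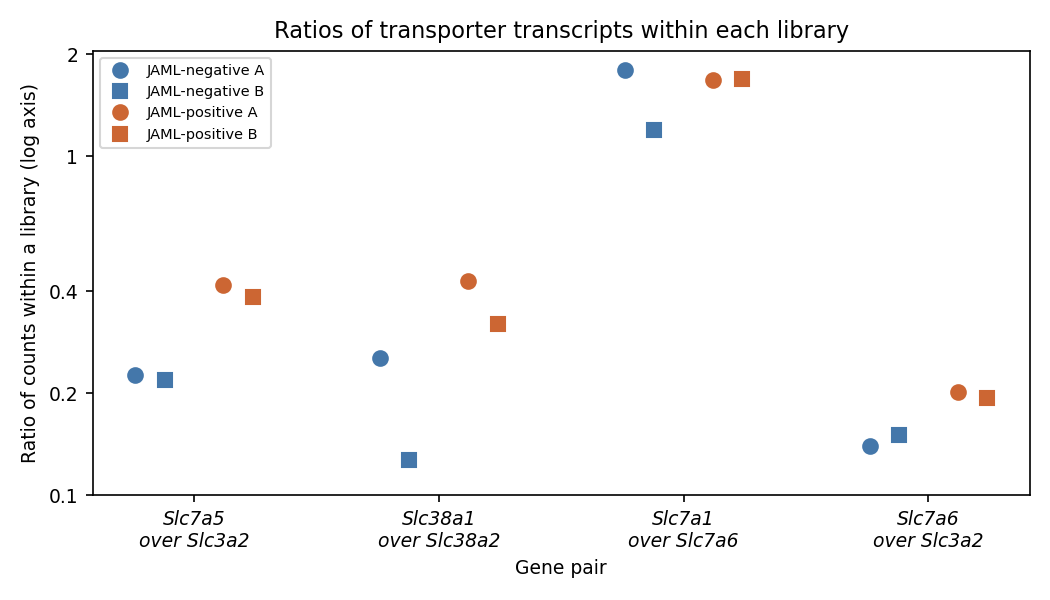
Ratio of the counts of 2 transporters within a library (vertical, log axis) for 4 pairs, with 1 point per library (circles replicate A, squares replicate B, blue JAML-negative, orange JAML-positive). The ratio of Slc7a5 to Slc3a2 is 0.219 to 0.227 in JAML-negative libraries and 0.384 to 0.417 in JAML-positive ones, and that of Slc7a1 to Slc7a6 overlaps between the groups.

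The second light chain showed no separation by itself. Slc7a6 (Entrez 330836, chromosome 8, 106168219 to 106198714, plus strand), which encodes y+LAT2, an exchanger of cationic for neutral amino acids, lay at 43.5 (A) and 52.6 (B) CPM in cells without JAML and 41.9 (A) and 49.9 (B) CPM in cells with JAML. Group means were 48.1 ± 6.45 and 45.9 ± 5.69 CPM and the groups overlapped (log2 fold change -0.06, SE 0.41, edgeR adjusted p = 0.983, 95% interval 0.517-fold to 1.78-fold). Its sign changed to 0.09 without JAML-negative replicate B and to 0.06 without JAML-positive replicate A. Against the heavy chain, the ratio of counts was 0.140 (A) and 0.151 (B) in cells without JAML and 0.202 (A) and 0.194 (B) in cells with JAML. That was 1.36-fold higher without overlap, as was the ratio to Slc3a2 of 44.2% of all other tested genes. Slc3a2 itself was lower in JAML-positive cells.

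Other light chains that bind CD98 were looked up after values of the wider transporter list had been seen. Slc7a11, which encodes the cystine and glutamate exchanger xCT, had 0 (A) and 0 (B) counts in cells without JAML and 192 (A) and 112 (B) counts in cells with JAML. It passed the filter on low counts only through the JAML-positive group and was picked for its values, so no test is given. Slc7a8, which encodes LAT2, had 19 and 9 counts against 213 and 106, and Slc7a7, which encodes y+LAT1, had 1 or 2 counts in each library. Low counts were unevenly spread in the table. Between 343 and 519 genes per library had 11 to 60 counts, against 2002 to 2069 in a wider bin that ends at 300. The bin between them held 268 (A) and 288 (B) genes in JAML-negative libraries and 932 (A) and 623 (B) in JAML-positive ones. No counts were found for 2787 to 2865 genes in JAML-negative libraries and 2407 to 2548 in JAML-positive ones. Whether this spread bears on the values of Slc7a11 and Slc7a8 was not tested. The floor covers counting error only. Per length of the longest transcript, the 5 light chains in the table together came to 28.7% and 28.9% of the heavy chain in JAML-negative cells and to 52.2% and 46.5% in JAML-positive cells (A and B). Slc7a5 held 60.6% to 65.9% of the light chain total in every library, and Slc7a8 with Slc7a11 held at most 0.517% in JAML-negative libraries and 2.85% to 7.17% in JAML-positive ones. With the mean transcript length the light chains came to 17.3% to 17.8% and 26.5% to 29.2% of the heavy chain, and Slc7a5 held 36.3% to 42.9% of their total, below Slc7a6 in every library, so which light chain led depended on the length used.

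Among the sodium-coupled carriers, SNAT2 had lower values in JAML-positive cells. Slc38a2 (Entrez 67760, chromosome 15, 96687392 to 96699728, minus strand), a gene known to be induced when amino acids run short, lay at 757 (A) and 938 (B) CPM in cells without JAML and 451 (A) and 653 (B) CPM in cells with JAML. The groups did not overlap (848 ± 128 against 552 ± 143 CPM), and JAML-positive replicate A was again the lowest. The log2 fold change was -0.62 (SE 0.23, unadjusted p = 0.0197, edgeR adjusted p = 0.609), a 95% interval of 0.461-fold to 0.922-fold. It was -0.37 without JAML-positive replicate A and -0.91 without JAML-positive replicate B, so the size of the difference depended on which JAML-positive library was used. With DESeq2 the adjusted p was 0.0693 for Slc38a2 and 0.0535 for Slc3a2, also short of the threshold.

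Slc38a2 and Slc3a2 had the most alike profiles of any pair among the 7. After each gene was centred on its own mean over the 4 libraries, their log2 CPM differed by a root mean square of 0.111, and the other pairs by 0.182 to 0.648. Of 8483 other genes with a mean of at least 10 CPM, Slc3a2 ranked 86 by likeness to Slc38a2, and Slc38a2 ranked 179 by likeness to Slc3a2. The pair was picked as the closest among the 7, over only 4 libraries, where near matches are easily found. Both genes were lowest in JAML-positive replicate A, the library with the high ribosomal share. Whether they share a regulator was not tested. To show what stands before the start of these 2 genes, the 250 bases upstream of a RefSeq start (GRCm38.p6, minus strand for both) are given 5′ to 3′, with matches to the motifs below in capitals. The window of Slc3a2 is chr19:8713898-8714147, before a start that lies within the gene's outer limits, and that of Slc38a2 is chr15:96699729-96699978.
Slc3a2: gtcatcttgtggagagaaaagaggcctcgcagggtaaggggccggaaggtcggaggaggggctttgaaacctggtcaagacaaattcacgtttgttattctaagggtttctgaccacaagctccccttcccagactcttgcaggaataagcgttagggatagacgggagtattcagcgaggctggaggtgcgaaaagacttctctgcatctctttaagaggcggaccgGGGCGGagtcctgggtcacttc
Slc38a2: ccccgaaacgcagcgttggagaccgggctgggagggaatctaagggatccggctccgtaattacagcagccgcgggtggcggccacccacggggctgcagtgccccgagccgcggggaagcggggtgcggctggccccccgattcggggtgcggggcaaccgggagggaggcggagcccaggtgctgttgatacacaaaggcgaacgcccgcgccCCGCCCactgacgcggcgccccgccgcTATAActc
The motifs searched on both strands were the ATF4 composite element TGATGNAA, the E-box CACGTG that Myc is known to bind, the GC box GGGCGG and the TATA box TATAA. In the window of Slc3a2 the capitals mark 1 GC box that starts 22 bases before the start, and in that of Slc38a2 1 GC box (reverse strand) at 35 bases and 1 TATA box at 8 bases before it. A GC box is held by 32.7% of 32851 RefSeq windows of this length and a TATA box by 22.8%. The ATF4 element (3.45% of windows) and the E-box (6.02%) had no match in any of the 6 windows held for Slc3a2, Slc38a2, Slc7a1 and Slc7a6. At such shares most windows hold no match, and sequence outside the 250 bases was not searched. The search therefore cannot show that these genes lack such elements.

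SNAT1 transcripts were less even between replicates. Slc38a1 (Entrez 105727, chromosome 15, 96571418 to 96643438, minus strand) lay at 192.8 (A) and 119 (B) CPM in cells without JAML and 193.0 (A) and 209.5 (B) CPM in cells with JAML. JAML-negative replicate A reached the level of the JAML-positive libraries, and the separation of the groups rested on a margin of under 1 CPM (156 ± 52.1 against 201 ± 11.6 CPM). The log2 fold change, 0.37, had an SE of 0.28 (edgeR adjusted p = 0.754, 95% interval 0.850-fold to 1.96-fold). It was 0.76 when JAML-negative replicate A was left out and 0.07 when replicate B was. The ratio of Slc38a1 to Slc38a2 counts was 0.254 (A) and 0.127 (B) in cells without JAML and 0.428 (A) and 0.321 (B) in cells with JAML, 2.06-fold higher without overlap (log2 difference 1.04, 0.54 without JAML-negative replicate B and 1.54 without JAML-negative replicate A). In 46.6% of genes the ratio to Slc38a2 was higher in both JAML-positive libraries, and in 30.4% it was higher by as much as that of Slc38a1 or more.

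ASCT2 differed more within the JAML-positive group than between the group means. Slc1a5 (Entrez 20514, chromosome 7, 16781334 to 16798274, plus strand) lay at 223 (A) and 189.6 (B) CPM in cells without JAML and 197 (A) and 128 (B) CPM in cells with JAML. The groups overlapped (206 ± 23.4 against 163 ± 48.5 CPM), and the lowest value was that of JAML-positive replicate B. The group difference on the log2 scale was -0.35 (SE 0.27, edgeR adjusted p = 0.768, 95% interval 0.521-fold to 1.18-fold), -0.68 without JAML-positive replicate A and -0.07 without JAML-positive replicate B.

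CAT1, the arginine and lysine carrier, did not separate the groups. Slc7a1 (Entrez 11987, chromosome 5, 148327410 to 148399904, minus strand) lay at 78.0 (A) and 62.8 (B) CPM in cells without JAML and 70.3 (A) and 84.3 (B) CPM in cells with JAML. The values overlapped (log2 fold change 0.14, SE 0.34, edgeR adjusted p = 0.946, 95% interval 0.660-fold to 1.84-fold), with means of 70.4 ± 10.8 and 77.3 ± 9.86 CPM. Its estimate was 0.30 with JAML-negative replicate A left out and -0.0030 with JAML-negative replicate B left out. The ratio of Slc7a1 to Slc7a6 counts overlapped as well, at 1.79 (A) and 1.19 (B) in cells without JAML and 1.68 (A) and 1.69 (B) in cells with JAML.

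**Figure D3:**
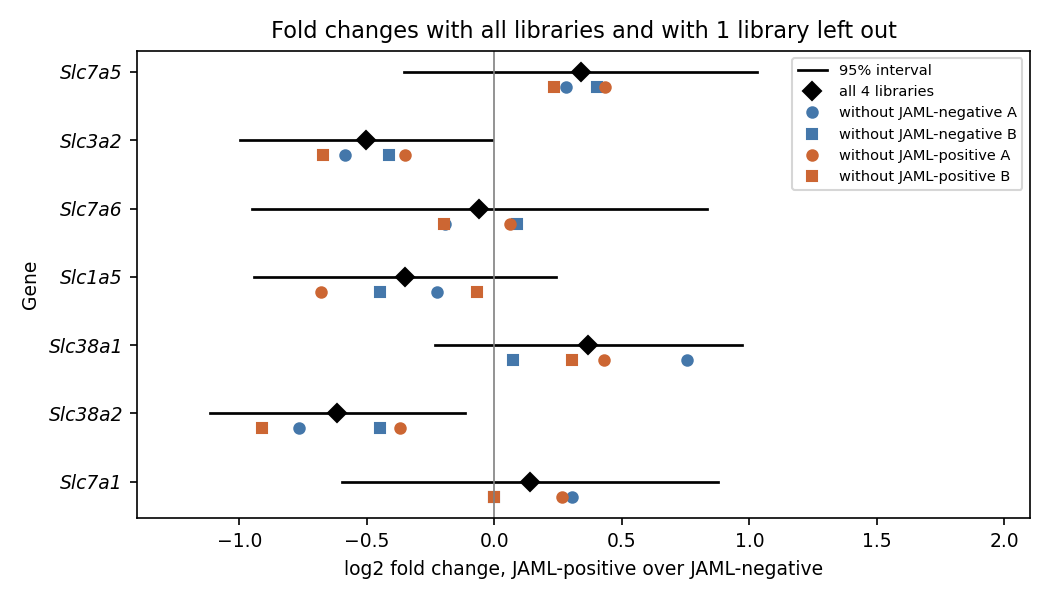
Log2 fold change of JAML-positive over JAML-negative cells (horizontal) for each transporter, as a diamond with its 95% interval from edgeR. Coloured points below it are the estimates with 1 named library left out. Slc3a2 and Slc38a2 stay below 0 in all 4, and Slc7a1 and Slc7a6 lie on both sides of 0.

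As a share of the summed counts of the 7 genes, Slc38a2 took 45.2% (A) and 52.5% (B) in cells without JAML and 36.2% (A) and 44.1% (B) in cells with JAML. Slc7a5 took 4.21% and 4.28% against 6.93% and 6.68%, and Slc38a1 11.5% and 6.66% against 15.5% and 14.1%. The 7 genes together came to 1677 (A) and 1789 (B) CPM in cells without JAML and 1246 (A) and 1482 (B) CPM in cells with JAML. Without Slc38a2 the sums were 919 and 850.3 against 796 and 829 CPM, so most of the lower total lay in SNAT2.

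Among the 3 genes whose profile over the 4 libraries was closest to that of Slc7a5 were Tmem123 and Ptp4a3, with root mean square differences of 0.0287 and 0.0338 in centred log2 CPM. They were taken from 8483 genes over 4 libraries, where near matches are easily found. Slc3a2, the binding partner of LAT1, ranked 4412 in likeness, while Slc7a1 ranked 729.

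Of 43 other amino acid transporters listed, 26 were in the table and 15 had enough counts to be tested. None passed, with 10 higher and 5 lower and a median log2 fold change of 0.21. Slc36a4, a carrier of proline and tryptophan, lay at 4.07 (A) and 14.1 (B) CPM in cells without JAML and 24.5 (A) and 28.2 (B) CPM in cells with JAML (1.55, SE 0.74, edgeR adjusted p = 0.609). Slc43a2, a further carrier of large neutral amino acids, lay at 43.2 and 27.9 against 31.2 and 78.9 CPM (0.66, SE 0.51), and Slc38a6 at 20.1 and 12.5 against 15.9 and 0.0 CPM (-1.15, SE 1.04). Slc6a9, the glycine carrier GLYT1, was singled out after its values were seen, with 171 (A) and 233 (B) counts in cells without JAML and 0 (A) and 2 (B) counts in cells with JAML and no test given, since it passed the filter only through the JAML-negative group.

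Genes that act on these carriers gave values on both sides. Myc, the transcription factor that drives expression of several of them in T cells, lay at 163 (A) and 141 (B) CPM in cells without JAML and 76.7 (A) and 113 (B) CPM in cells with JAML (log2 fold change -0.67, SE 0.29, edgeR adjusted p = 0.609). Its lowest value was in JAML-positive replicate A, the library with the high ribosomal share. Whether Myc bears on the transporter values was not tested. Hif1a, the oxygen-regulated factor, was at 306 and 289 against 335 and 453 CPM (0.41, SE 0.23), and Rptor, the subunit raptor of mTORC1, at 61.6 and 58.2 against 21.6 and 40.5 CPM (-0.92, SE 0.45). Of 8 tested genes in this list 0 passed, 4 were higher and 4 lower (median -0.01). Among 18 tested genes of the amino acid response, which runs through GCN2 and ATF4, 10 were higher and 8 lower (median 0.16), and 0 passed. Shmt2, a mitochondrial enzyme of serine and glycine metabolism, was at a log2 fold change of 0.49 (SE 0.33), Ddit4, a stress-induced inhibitor of mTORC1, -0.40 (SE 0.28), and Eif2ak4, the kinase GCN2 that senses uncharged tRNA, -0.81 (SE 0.53). Of the 26 tested genes that sense amino acids upstream of mTORC1, 12 were higher and 14 lower (median -0.03) and 0 passed. Nprl3, a subunit of the GATOR1 complex that restrains mTORC1, had a log2 fold change of 1.86 (SE 0.72), Flcn, which encodes folliculin, -1.22 (SE 0.55) with 101.2 (A) and 31.2 (B) CPM in cells without JAML, and Lamtor3 -0.73 (SE 0.49).

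Genes that use or make amino acids had mostly higher values in JAML-positive cells, where 5867 of all 11563 genes tested were higher. Of 20 cytosolic aminoacyl-tRNA synthetases, which load amino acids onto tRNA, 17 were higher and 3 lower, with a median log2 fold change of 0.21, against 0.01 over all genes tested. In 7 of 20 both JAML-positive libraries were above both JAML-negative ones, beside 20.3% of all genes, and 0 passed. Eprs, the enzyme for glutamate and proline, lay at 147 (A) and 152 (B) CPM in cells without JAML and 209.8 (A) and 209.3 (B) CPM in cells with JAML (0.48, SE 0.24). For Farsb, a subunit of the phenylalanine enzyme, the log2 fold change was 1.205 (SE 0.44) and for Kars, the lysine enzyme, 0.52 (SE 0.26), with edgeR adjusted p = 0.609 for these 3. Of 26 tested enzymes of amino acid metabolism 18 were higher and 8 lower (median 0.20), and 0 passed. Asl, the argininosuccinate lyase that makes arginine, lay at 18.8 (A) and 4.54 (B) CPM in cells without JAML and 45.3 (A) and 40.9 (B) CPM in cells with JAML (1.87, SE 0.63). For Sms, which makes spermine, the log2 fold change was 0.59 (SE 0.32) and for Gfpt1, which draws glutamine into hexosamine synthesis, 0.53 (SE 0.36). Dividing cell markers were higher in the same JAML-positive libraries, at 2103 and 2436 against 1550 and 1612 CPM, and their part in these values was not tested.

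**Figure D4:**
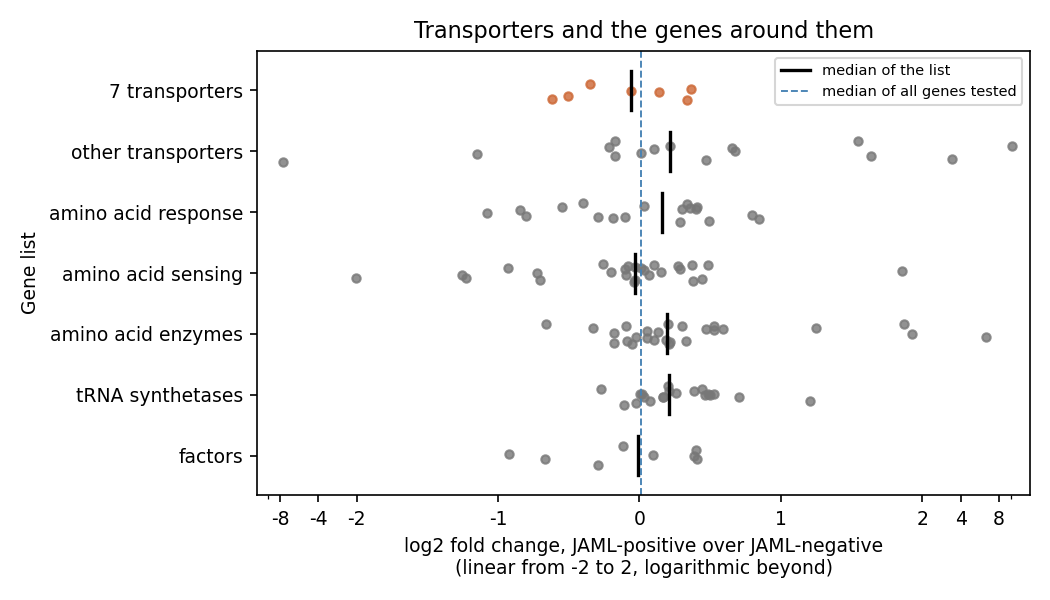
Log2 fold change of JAML-positive over JAML-negative cells (horizontal, linear from -2 to 2 and logarithmic beyond) of every tested gene in the 7 transporters (orange) and 6 lists around them (grey), with vertical jitter only for legibility. Black bars are list medians and the dashed line is the median of all genes tested, 0.01. The medians lie between -0.06 and 0.21.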

How the data were processed

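Libraries were made from total RNA of sorted cells with a SMARTER mRNA-Seq kit, per the labels' protocols. The authors deposited a table of raw read counts per gene with gene symbols and Entrez identifiers. The submitters' processing notes name GRCm38 (mm10). Not given in the sources used here are aligner, counting program and strand setting. Genes were tested with edgeR 4.0.16 in R 4.3.3 on the counts as deposited: filterByExpr with a minimum count of 10 left 11563 of 14934 genes, TMM scaling, robust dispersions, the quasi-likelihood test without covariate, and Benjamini-Hochberg adjustment over all genes with a threshold of 0.05. SEs were derived from the fold change and its F statistic. Fits were tested on simulated data. Alternatives used other scaling, filters, DESeq2 1.42.0, limma-voom (limma 3.58.1), a replicate block, removal of length and GC trends, and each library left out. Transcript lengths are from GENCODE M21 (13795 genes matched), coordinates and upstream sequences from RefSeq GRCm38.p6 (14681 genes matched by Entrez identifier). Exons of the 7 genes overlapped those of no other annotated gene. Promoter entries were matched by symbol for 4 of the 7 (Slc3a2, Slc38a2, Slc7a1 and Slc7a6). The transporters and gene lists were chosen with earlier results of these data known, and no gene set was tested. Named genes are the 7, the 3 closest to Slc7a5 in profile (1 of them is not reported here), and per list the 3 of at least 10 CPM in a group with the smallest p; others are marked as chosen after their values were seen. CPM per kilobase uses the longest coding transcript.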

Additional observations from a re-analysis of the deposited data

How the results depend on the processing

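Of the 7 transporters 0 passed the threshold in any setting run, including each library left out. Slc7a5, Slc3a2, Slc1a5, Slc38a1 and Slc38a2 kept their direction in all of them. Slc7a1 ranged from -0.0032 to 0.30 with 1 library left out and changed sign without either replicate B, to -0.0030 for the JAML-negative one. Slc7a6 ranged from -0.20 to 0.089 and changed sign without JAML-negative replicate B (0.089) and without JAML-positive replicate A (0.062). Over all genes DESeq2 called 885 (536 higher and 349 lower) where edgeR called 0, and edgeR called 2, Jchain and Mpeg1, with no filter on low counts and 2 with a mean of at least 5 CPM. Limma-voom called 0, and at an unadjusted p under 0.05 edgeR had 885 genes, limma-voom 683 and DESeq2 2054. The 6 lists around the transporters held 15, 18, 26, 26, 20 and 8 tested genes, with Sesn2, Lars and Atf4 in 2 lists each. DESeq2 called 5 of these genes, beside 7.65% of all genes tested. Eprs and Nprl3 were among them. The rest had a group at 0 to 2 counts per library and passed the filter only through the other group, so nothing is drawn from their calls. The cause of these differences was not tested. With the mean transcript length in place of the longest, the mean ratio of Slc7a5 to Slc3a2 per length went from 0.239 to 0.0884, and 2 of the 7 genes held their place in the order of levels. With the replicate block Slc38a2 had a log2 fold change of -0.63 (edgeR adjusted p = 0.854) and Slc3a2 of -0.51 (0.854), and all genes called numbered 0. The labels do not say that the letters pair libraries, and the A minus B differences of the 2 groups had a Pearson correlation of 0.0176 across genes. An earlier quasi-likelihood method of edgeR, added after the data were seen, also called 0 genes. Slc7a7, at 1 or 2 counts per library, was too low to be tested.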
